A study of Mus musculus with 47 samples.

Results

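A group of 10 mouse genes, counterparts of human genes linked to Alzheimer disease risk, was followed across cultured microglia of 5 Apoe genotypes with and without myelin. The genes were Spi1, Inpp5d, Plcg2, Cd33, Ms4a6d, Bin1, Picalm, Sorl1, Abi3 and Abca7. They were taken by gene name, which found 10 of the 53697 genes in the deposited table, and not by how they moved. The cells were primary microglia from the forebrain of C57BL/6 mice. E4 and E3 cells carry human APOE4 or APOE3 in place of both mouse Apoe alleles, KO cells lack intact Apoe, Het cells have 1 intact allele, and WT cells have both. In every genotype, cultures were given myelin for 3 h or left untreated, and RNA was collected at 24 h. There were 5 libraries in each E4, KO and WT group, 4 in each E3 group, 4 in Het cells after myelin and 5 in untreated Het cells, 47 in all. Per the labels, E4 and E3 mice came from Taconic, and KO, Het and WT mice from the Jackson Laboratory. KO and Het came as 1 line. In comparisons of E4 or E3 with WT, the human allele and the mouse source therefore cannot be told apart. In comparisons of KO with WT, the loss of Apoe and the mouse line likewise cannot be told apart. The labels do not say whether replicates were separate mice or cultures, and p-values reflect only how far libraries of a group differ, part of which may be technical.

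Much of the inherited risk of Alzheimer disease lies in genes that are active in microglia, the resident macrophages of the brain. The genes followed here act at successive steps of macrophage biology. PU.1, the product of Spi1, sets up macrophage gene expression. Surface receptors such as CD33 sense the surroundings. SHIP1 and phospholipase C gamma, from Inpp5d and Plcg2, pass on or limit receptor signals through membrane phosphoinositides. BIN1, PICALM and SORL1 act in uptake and endosomal sorting, ABI3 in actin remodelling and ABCA7 in lipid export. APOE supplies lipid particles to the same cells, and myelin debris is a lipid load that microglia ingest. The study asked how APOE4 cells differ from APOE3 cells at rest and after myelin.

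Expression was measured as TPM, a read share corrected for transcript length. Because a non-coding RNA, Gm23935, took 69.4 to 99% of TPM, values were rescaled to the total of nuclear protein-coding genes and to trimmed-mean library factors, and are called scaled TPM. The 4 Het libraries in which coding genes held 0.468 to 5.66% of TPM were left out of the tests: untreated replicates 3 and 5, and myelin replicates 1 and 2. The other 43 held 7.16 to 27.3% and replicates among them correlated between 0.963 and 0.99. This coding share differed between groups. Untreated libraries held 7.16 to 16.1% in E4, 11.1 to 16.6% in E3, 16.4 to 24.9% in KO and 20.5 to 27.3% in WT cells. Every untreated E4 and E3 library thus lay below every untreated WT library. After myelin the share was 16 to 24.3% in E4, 10.1 to 23.7% in E3, 21.7 to 25.9% in KO and 13.1 to 24.8% in WT cells. Its part in the results below was not tested. Mouse Apoe, read as a check of the labels, lay between 136 and 747 scaled TPM in E4 libraries, 87.8 and 244 in E3, 67.8 and 90.1 in KO, 9220 and 64200 in Het, and 47600 and 84600 in WT libraries. All 10 microglial markers were detected, Tyrobp highest (4580 to 11900 scaled TPM) and P2ry12 lowest (1.64 to 10.3).

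Markers of other cell types differed between genotypes. Summed over 10 astrocyte markers, untreated libraries held 1843 to 3133 scaled TPM in E4, 1020 to 1199 in E3, 92.21 to 129.8 in KO and 143.5 to 170.8 in WT cells. Summed over 8 fibroblast and pericyte markers, they held 105.8 to 190.3 in E4, 353.6 to 525.4 in E3, 31.56 to 652 in KO and 735.1 to 1133 in WT cells. The summed microglial markers were at 11730 to 15130 in E4, 10580 to 12700 in E3, 16010 to 18050 in KO and 10800 to 12980 in WT cells. Of 7 border macrophage markers, Cd163 and Lyve1 were under 1 scaled TPM throughout, and the sum was 1079 to 1477 in E4, 1060 to 1382 in E3, 2010 to 2253 in KO and 1551 to 2100 in untreated WT libraries. In bulk RNA, fewer cells of a type and less RNA per cell cannot be told apart.

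**Figure D1:**
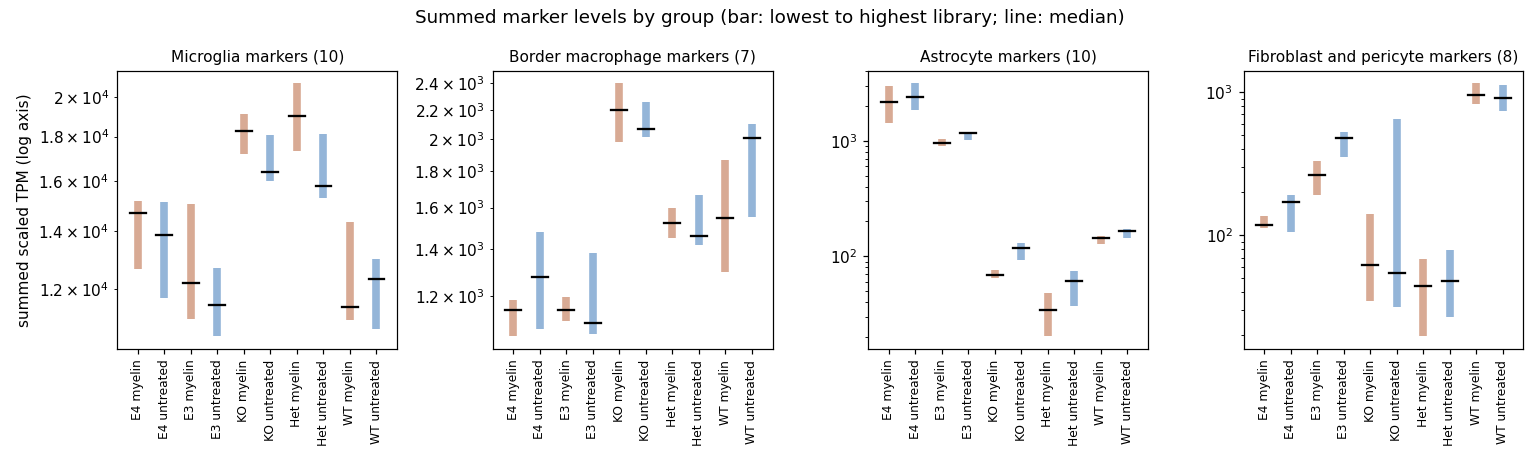
Summed scaled TPM (log axes) of 4 marker lists in each group, over the 43 libraries tested; bars run over the lowest to the highest library and lines mark the median, with red-brown for myelin and blue for untreated cultures. Astrocyte markers were at 1843 to 3133 in untreated E4 and 1020 to 1199 in untreated E3 cells, and under 171 in every KO, Het and WT library shown, while border macrophage markers were lower in every E4 and E3 library than in every KO library.

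All 10 genes passed the filter on low values (5 scaled TPM or more in 4 or more libraries), as did 10722 genes in all. Averaged over 43 libraries, Ms4a6d (309 scaled TPM), Spi1 (300), Inpp5d (188) and Bin1 (181) stood above 92% of the genes tested. Picalm (79.9) and Plcg2 (47) followed, then Cd33 (24.1), Abi3 (19.5), Abca7 (12.8) and Sorl1 (12.3). Cd33 and Ms4a6d varied most between groups: their group means spanned 1.39 and 1.37 on the log2(scaled TPM + 1) scale, against 0.31 for Bin1, which varied least. With groups ordered by mean, adjacent groups were separated without overlap at few places. For Ms4a6d these were between untreated WT cells and the next group and between all KO, Het and WT groups and all E4 and E3 groups. For Picalm they were between Het cells after myelin and untreated E3 cells, the groups on either side of the same divide, and between untreated E4 cells and E4 cells after myelin; 1 E3 library after myelin (75.4) stood above 1 WT library after myelin (74.2). For Spi1 the only such step was between the KO groups and all others. Adjacent groups overlapped throughout the order for the other 7 genes.

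**Figure D2:**
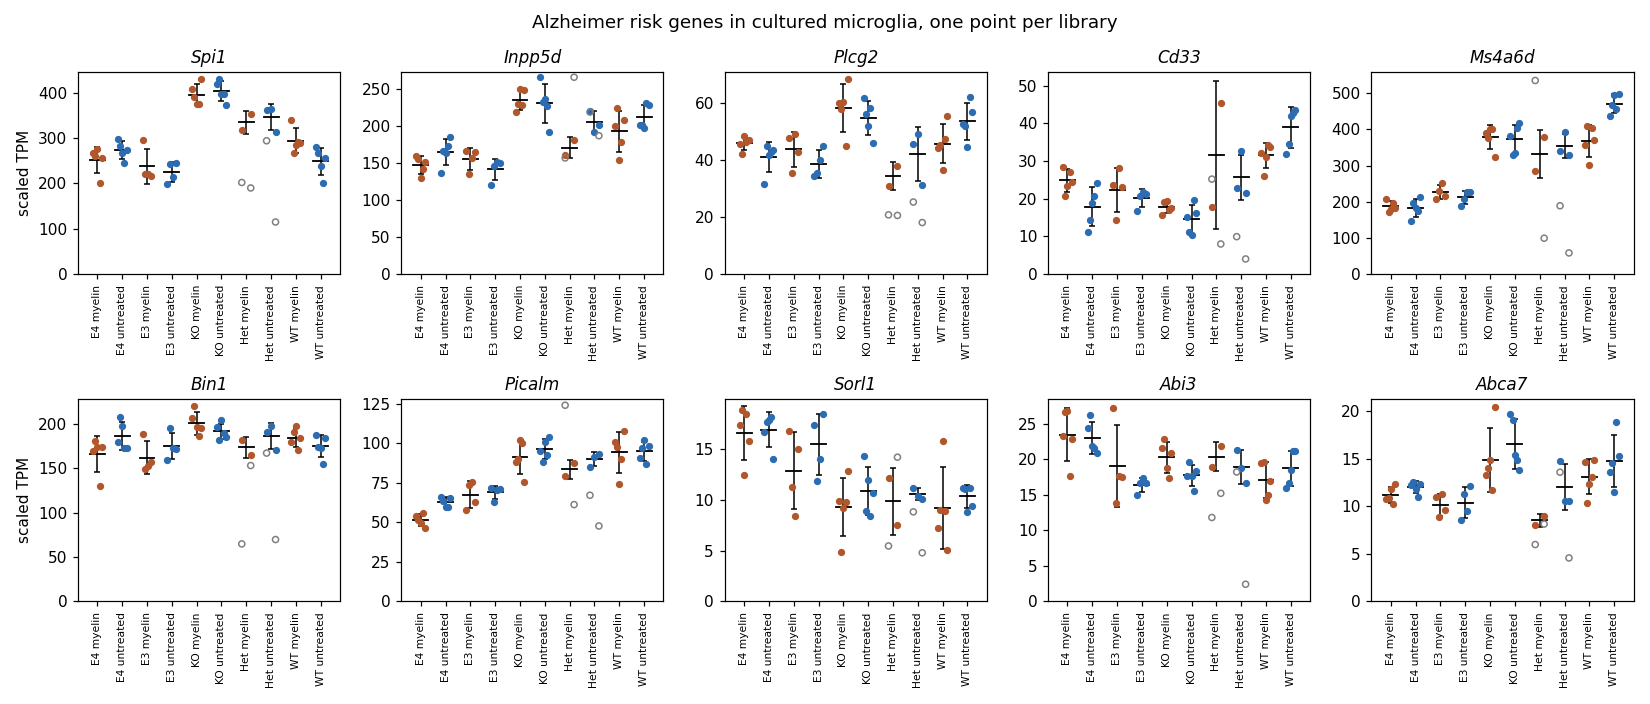
Scaled TPM of the 10 genes, 1 point per library, with E4, E3, KO, Het and WT groups after myelin (red-brown) and untreated (blue); bars give the mean ± SD of the libraries tested, and open grey circles are the 4 Het libraries left out. Ms4a6d lies lower in all E4 and E3 libraries than in all KO, tested Het and WT libraries, and Spi1 lies highest in KO cells.

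Comparisons were made with limma over all 10722 genes, and a gene was called at an adjusted p (Benjamini-Hochberg) under 0.05. Between E4 and E3 cells few of the 10 genes were called. In untreated cells 2 were called, both higher in E4, where 17.1% of all genes were called and 6.99% were higher. After myelin 1 was called, lower in E4, where 11.3% of all genes were called and 5.21% were lower. For the myelin response itself, 1 gene fell in E4 cells (12.3% of all genes called, 3.99% lower), 1 fell in WT cells (6.28% called, 0.746% lower), and 0 were called in E3 (5.31% of all genes), KO (2.33%) and Het cells (0.121%). Without adjustment, 0 of the 10 had p under 0.05 in the E3 and KO responses, 1 in the Het, 3 in the E4 and 2 in the WT response. Of all 10722 genes, 2637, 1670, 1031, 3002 and 2083 did in the E3, KO, Het, E4 and WT responses. Counts of 0 to 2 called genes among 10 are near the shares of all genes called, and the results below are about single genes.

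More was called against WT, as for genes at large. In untreated KO cells 3 of the 10 genes were called (56.5% of all genes), 1 higher (25.9%) and 2 lower (30.6%). In KO cells after myelin 4 were called (55.6% of all genes), 3 higher (30.6%) and 1 lower (25%). In untreated E3 cells 7 were called (55.8% of all genes), 1 higher (23.1%) and 6 lower (32.7%). In untreated E4 cells 7 were called (64.6% of all genes), 2 higher (25.9%) and 5 lower (38.7%). The median log2 fold change of the 10 genes was -0.31 in E4 and -0.46 in E3 against WT, beside -0.10 and -0.06 for all genes tested, and 0.04 in KO against WT, beside -0.04. These 3 comparisons share the untreated WT libraries, so their values are given side by side and not as separate support. Scaling by the coding total alone moved the median of all genes by more than 0.1 only in E4 against WT (0.01 in place of -0.10), and the values below are read against that shift. In a fit of all 47 libraries without weights, which adds the spread of the 4 Het libraries, 12 of the calls below were lost (adjusted p 0.0563 to 0.861), among them every myelin response and every difference between E4 and E3 cells. With array weights in that fit, which count libraries that stand apart for less, 10 other values gained a call. The weighted fit was not used for calls. In earlier results of these data, array weights gave more false calls when single groups were split.

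**Figure D3:**
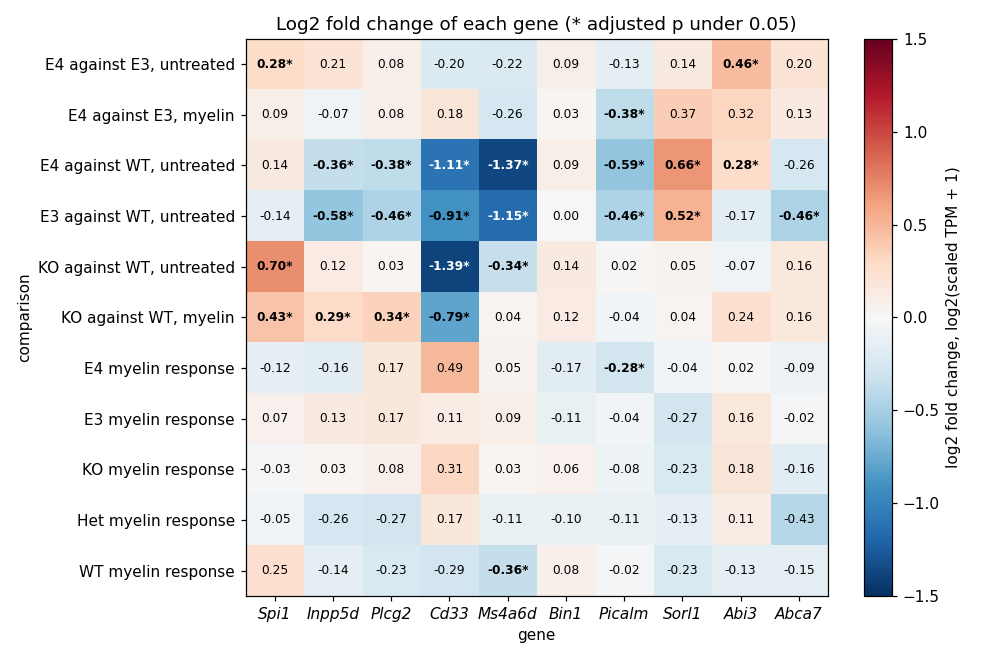
Log2 fold changes of the 10 genes (columns) in 11 comparisons (rows), on the log2(scaled TPM + 1) scale, with the first-named genotype or myelin on top of the ratio; an asterisk marks an adjusted p under 0.05. The largest values are those of Cd33 (-1.39 in untreated KO against WT cells) and Ms4a6d (-1.37 in untreated E4 against WT cells), and the myelin responses are mostly near 0.

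Spi1, the gene of PU.1, lies on the forward strand of chromosome 2 (chr2:91082390-91115756, mm10, ENSMUSG00000002111.8). It was highest in KO cells. Untreated KO libraries held 420, 429, 398, 397 and 372 scaled TPM, against 280, 267, 239, 202 and 255 in untreated WT libraries. Every KO library stood above every WT library, and on the log2(scaled TPM + 1) scale, used for all fold changes here, Spi1 was 1.63-fold higher (log2 fold change 0.70 ± 0.09 SE, adjusted p = 1.43e-08). After myelin KO cells averaged 396 ± 23.7 scaled TPM and WT cells 294.1 ± 27.1 (SD, n = 5 each), again without overlap (0.43 ± 0.09, adjusted p = 0.0001). WT cells themselves were at 294.1 ± 27.1 after myelin and 248.7 ± 30.1 untreated, with no call (0.25 ± 0.09, adjusted p = 0.106) unless untreated WT replicate 1 was left out (adjusted p = 0.0477). The 3 untreated Het libraries tested held 362, 364 and 313 scaled TPM, between KO and WT libraries. That difference moved with the microglial markers, whose sum was higher in every untreated KO than in every WT library, although single markers went both ways (4 of 10 higher and 3 lower). Their part in the result was not tested.

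Spi1 was also higher in untreated E4 than E3 cells, by a smaller step. E4 libraries held 297, 283, 267, 244 and 274 scaled TPM and E3 libraries 198, 242, 215 and 245, so that the lowest E4 and the highest E3 library overlapped. The log2 fold change was 0.28 ± 0.10 with an adjusted p of 0.0373. The call was lost on leaving out E3 replicate 1 or 3 or E4 replicate 1, 2, 3 or 5, with adjusted p between 0.0522 and 0.167, and with no filter on low values (adjusted p = 0.0648). Of 9 tested astrocyte markers 7 were higher in E4 than E3 cells, and 4 of 5 fibroblast and pericyte markers were lower; their part in this and in the other differences between E4 and E3 cells was not tested. Against untreated WT cells E4 cells were not called (0.14 ± 0.09, adjusted p = 0.172), except with the coding total alone (0.25, adjusted p = 0.00751). After myelin, E4 cells averaged 252.1 ± 29 and E3 cells 237.8 ± 38.6 scaled TPM (SD, n = 5 and 4), with no call (adjusted p = 0.639).

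Of 12 partners and targets of PU.1, 8 were higher and 2 lower in untreated KO than WT cells. There 25.9% of all genes were higher and 30.6% lower. The median log2 fold change of the 12 was 0.29, beside -0.04 for all genes. Csf1r and Itgam on this list are also microglial markers, and the part of those markers was not tested. In untreated E4 against E3 cells 3 of the 12 were higher and 0 lower, where 6.99% of all genes were higher. Among the 3 were Sall1, a microglial transcription factor (0.51 ± 0.10, adjusted p = 0.000517), and Irf8, a factor that pairs with PU.1. Sall1 was also higher in untreated KO than WT cells (0.31 ± 0.10, adjusted p = 0.0063). With myelin, Spi1 was not called in E4 (-0.12 ± 0.09) or E3 cells (0.07 ± 0.10).

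Inpp5d encodes SHIP1, the phosphatase that removes the lipid signal made by phosphoinositide 3-kinase (chr1:87620312-87720507, forward strand, ENSMUSG00000026288.14). It was lower in cells with a human APOE allele. Untreated libraries held 137, 166, 164, 173 and 185 scaled TPM in E4 cells, 121, 146, 151 and 150 in E3 cells, and 202, 201, 197, 231 and 229 in WT cells. No E4 or E3 library reached the lowest WT library. The log2 fold change against WT was -0.36 ± 0.09 in E4 (adjusted p = 0.000702) and -0.58 ± 0.10 in E3 cells (adjusted p = 5.36e-06). Between untreated E4 and E3 cells the difference was 0.21 ± 0.10 (adjusted p = 0.132), called without untreated E4 replicate 1 (adjusted p = 0.0433) and with array weights (adjusted p = 0.0356). KO and WT cells differed after myelin, with 235.2 ± 13.5 and 193.3 ± 27.7 scaled TPM (SD, n = 5 each) and groups that overlapped (0.29, adjusted p = 0.00659). In that comparison 7 of 10 microglial markers were higher and 1 lower, and their sum was 17160 to 19110 scaled TPM in KO and 11060 to 14330 in WT libraries. Their part in this and in the KO values of Spi1 and Plcg2 after myelin was not tested.

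Plcg2 encodes the phospholipase C that microglial receptors such as TREM2 act through (chr8:117498291-117635142, forward strand, ENSMUSG00000034330.10). It followed a similar order at a lower level. Untreated libraries held 31.7, 45, 41.8, 42.9 and 43.6 scaled TPM in E4 cells, 34.3, 35.5, 40.1 and 44.8 in E3 cells, and 52.6, 51.8, 44.7, 62.1 and 57 in WT cells. The highest E4 and E3 libraries met the lowest WT library. Plcg2 was lower in E3 (-0.46, adjusted p = 0.00254) and in E4 cells (-0.38, adjusted p = 0.00605), but in E4 cells the call was lost when libraries were scaled by the coding total alone (-0.27, adjusted p = 0.0716). After myelin KO cells averaged 58.36 ± 8.45 and WT cells 45.75 ± 6.74 scaled TPM (SD, n = 5 each; 0.34, adjusted p = 0.0149), a call lost without KO myelin replicate 5 or WT myelin replicate 3 (adjusted p = 0.0568 and 0.0703).

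The other genes of this route were counted beside them. Of 14, all tested, 2 were higher and 6 lower in untreated E4 than WT cells. In E3 than WT cells 1 was higher and 7 lower, and in KO than WT cells 10 higher and 2 lower. Of all genes 25.9% were higher and 38.7% lower in E4, 23.1% and 32.7% in E3, and 25.9% and 30.6% in KO cells. With the coding total alone 4 of the 14 were higher and 5 lower in E4 cells. Trem2 and Tyrobp on this list are also microglial markers, and the part of those markers was not tested. Ptpn6, the phosphatase SHP-1, was lower in E4 (-0.38 ± 0.09, adjusted p = 0.000246) and E3 (-0.64 ± 0.09, adjusted p = 3.25e-07) and higher in KO cells (0.65 ± 0.09, adjusted p = 2.97e-08). Itpr1, a calcium channel opened by the product of phospholipase C, was lower in KO cells (-1.58 ± 0.11, adjusted p = 3.7e-15). With myelin, E4 cells lowered Itpr1 (-0.43 ± 0.11, adjusted p = 0.00815) and Dok3, an adaptor that works with SHIP1 in B cells (-0.60 ± 0.12, adjusted p = 0.000992). Neither Inpp5d (-0.16, adjusted p = 0.261) nor Plcg2 (0.17) was called in that response, though Inpp5d was with array weights (-0.20, adjusted p = 0.0418).

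Cd33 encodes a sialic acid-binding receptor that is inhibitory in humans (chr7:43524216-43544428, reverse strand, ENSMUSG00000004609.11). It was lower in untreated KO, E4 and E3 cells than in WT cells, most in KO cells. Untreated Het cells, with 1 intact allele, also averaged less than WT cells (25.62 and 38.89 scaled TPM), a difference not tested. Untreated libraries held 15.2, 11.1, 10.3, 19.6 and 16.3 scaled TPM in KO cells, against 31.8, 34.6, 41.8, 42.7 and 43.5 in WT cells. Every KO library lay below every WT library, 2.62-fold on average (-1.39 ± 0.19, adjusted p = 5.06e-08). After myelin the groups were again apart, at 17.72 ± 1.52 in KO and 31.45 ± 3.24 scaled TPM in WT cells (SD, n = 5 each; -0.79 ± 0.19, adjusted p = 0.000515). In untreated cells of the other genotypes, E4 libraries held 11.2, 14.4, 18.9, 20.8 and 24.3 scaled TPM, E3 libraries 16.8, 20.7, 21.9 and 21.3, and the 3 tested Het libraries 22.8, 32.6 and 21.5. No E4 or E3 library reached a WT library, with log2 fold changes of -1.11 ± 0.19 in E4 (adjusted p = 3.47e-06) and -0.91 ± 0.20 in E3 cells (adjusted p = 0.000224). All 5 tested fibroblast and pericyte markers were lower in KO and in E4 cells than in WT cells, and 2 in E3 cells. Of 4 tested border macrophage markers all 4 were lower in E4 and in E3 cells, and 1 was higher and 2 lower in KO cells. Of 9 tested astrocyte markers 8 were higher in E4 and in E3 cells, and 1 was higher and 2 lower in KO cells. Their part in the result was not tested. Cd33 lies 23.8 Mb from Apoe on the same chromosome. Of 52 tested genes within 2 Mb of it, 12 were higher and 14 lower in untreated KO than WT cells, with a median log2 fold change of 0, a count made after the value of Cd33 was seen.

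With myelin, Cd33 was at 28.5, 20.6, 23.5, 27.2 and 24.5 scaled TPM in E4 cells, against 11.2, 14.4, 18.9, 20.8 and 24.3 in untreated E4 cells. The groups overlapped and the difference was not called (0.49 ± 0.19, adjusted p = 0.0831), but it was on leaving out untreated E4 replicate 5 (0.60, adjusted p = 0.0336) and with array weights (0.41, adjusted p = 0.0372). The other genotypes gave no call (0.11 in E3, 0.31 in KO, 0.17 in Het and -0.29 in WT cells). The E4 response minus the WT response was 0.78 ± 0.27 (adjusted p = 0.0773), and it was called without untreated E4 replicate 5 (0.90, adjusted p = 0.0435) and with array weights (0.67, adjusted p = 0.0489). Of 6 other sialic acid-binding receptor genes 3 were tested. Siglecg fell with myelin in E4 (-0.64 ± 0.19, adjusted p = 0.0238) and E3 cells (-0.71 ± 0.22, adjusted p = 0.0447), and Siglece fell in E4 cells (-0.86 ± 0.16, adjusted p = 0.000308). Siglecg was also lower in untreated E4 than E3 cells (-1.46 ± 0.20, adjusted p = 1.97e-06), where Cd33 was not called (-0.20 ± 0.20).

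Ms4a6d belongs to the MS4A family of membrane-spanning proteins, whose human gene cluster holds an Alzheimer risk signal (chr19:11586604-11604849, reverse strand, ENSMUSG00000024679.10). It was lower in untreated E4, E3 and KO cells than in WT cells. Untreated libraries held 148, 197, 183, 174 and 213 scaled TPM in E4 cells, 188, 208, 227 and 226 in E3 cells, 381, 328, 334, 404 and 417 in KO cells, and 438, 468, 495, 456 and 498 in WT cells. WT libraries were highest, KO libraries lay below them, and E4 and E3 libraries lay below both without overlap. The 3 tested untreated Het libraries, with 1 intact Apoe allele, also lay below every WT library. They held 329 to 393 scaled TPM (353.9 ± 34.4, SD), near KO cells, and were not tested against WT. Against WT the log2 fold change was -1.37 ± 0.09 in E4 (2.58-fold lower, adjusted p = 1.6e-15), -1.15 ± 0.10 in E3 (2.22-fold lower, adjusted p = 2.74e-12) and -0.34 ± 0.09 in KO cells (1.27-fold lower, adjusted p = 0.00201). E4 and E3 cells did not differ by a called amount (-0.22 ± 0.10, adjusted p = 0.127). All 4 tested border macrophage markers were also lower in E4 and in E3 than in WT cells (2 and 3 of the 3 tested with the coding total alone), 1 of them, Ms4a7, from the same family. Their part in the result was not tested.

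Myelin lowered Ms4a6d in WT cells. WT libraries held 357, 410, 301, 404 and 372 scaled TPM after myelin, against 438, 468, 495, 456 and 498 untreated, with no overlap (-0.36 ± 0.09, adjusted p = 0.0138). The call was lost without WT myelin replicate 3 (-0.29, adjusted p = 0.0627) and when only the WT groups were fitted (adjusted p = 0.161), a fit in which 0 of all genes were called. Over all alternatives that leave out no single replicate the adjusted p ran from 0.0138 to 0.861. In the same response 3 of 4 tested border macrophage markers fell, namely Mrc1, Pf4 and F13a1, and their part in the result was not tested. The other genotypes gave 0.05 (E4), 0.09 (E3), 0.03 (KO) and -0.11 (Het). As differences from the WT response these were 0.41 ± 0.13 in E4 (adjusted p = 0.0639), 0.45 ± 0.14 in E3 (adjusted p = 0.0711) and 0.38 ± 0.13 in KO cells (adjusted p = 0.0869). None was called, but each was called on leaving out WT myelin replicate 2 (adjusted p = 0.038, 0.0449 and 0.0471), the E4 value also without untreated E4 replicate 5 (adjusted p = 0.0345), and the KO value also with array weights (adjusted p = 0.0439).

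Of 10 other members of the MS4A family 4 were tested, and all 4 were lower in E4 and in E3 than in WT cells, where 38.7% and 32.7% of all genes were lower. Their medians were -1.11 and -1.25; with the coding total alone 3 were called lower in E4. Ms4a4a was lowest (-2.07 in E4 and -2.59 in E3). Ms4a6b and Ms4a6c were lower in KO cells too (-0.68 ± 0.14, adjusted p = 8.83e-05, and -0.44 ± 0.11, adjusted p = 0.00065), and Ms4a6b fell with myelin in WT cells (-0.48 ± 0.14, adjusted p = 0.0307). Members of the family resemble each other, so the counting may share reads among them. Of the 31-base words in Ms4a6d transcripts 8.11% occur in transcripts of other genes, 4.81% in Ms4a6b alone, against 0 to 0.82% for the other 9 genes. The longest coding run that Ms4a6d and Ms4a6b have in common, 81 bases, is shown because a read inside it cannot tell the genes apart. It covers positions 100 to 180 of the 741 coding bases of Ms4a6d, over 2 exons of chr19:11601932-11603193 (GRCm38, GENCODE M21, reverse strand), and is written 5′ to 3′ in lower case throughout.
Ms4a6d and Ms4a6b: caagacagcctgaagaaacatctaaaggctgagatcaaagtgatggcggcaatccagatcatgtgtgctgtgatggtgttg
The level of Ms4a6d is uncertain to the extent that reads fell inside such runs.

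Picalm encodes a clathrin assembly protein of the plasma membrane (chr7:90130213-90213465, forward strand, ENSMUSG00000039361.11). It was the 1 gene of the 10 called between E4 and E3 cells after myelin, where array weights added Spi1 (0.21, adjusted p = 0.0459) and Abi3. E4 libraries held 54, 51.4, 49.6, 55.9 and 46.5 scaled TPM after myelin, against 57.5, 73.6, 75.4 and 63 in E3 libraries. All E4 libraries lay below all E3 libraries (-0.38 ± 0.09, adjusted p = 0.00351), and the call held on leaving out each of the 9 libraries in turn (adjusted p 0.00111 to 0.0254). Untreated E4 libraries held 65.9, 63.6, 59.9, 59.4 and 65.3 scaled TPM and untreated E3 libraries 71.6, 63.1, 70.4 and 70.9, with overlap and no call (-0.13 ± 0.09, adjusted p = 0.342).

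Within E4 cells Picalm fell with myelin, and no myelin library reached an untreated one (-0.28 ± 0.08, adjusted p = 0.0228). That call was lost without untreated E4 replicate 1, E4 myelin replicate 3 or E4 myelin replicate 5 (adjusted p = 0.0618, 0.0563 and 0.0677). The responses of the other genotypes were smaller and not called (-0.04 in E3, -0.08 in KO, -0.11 in Het and -0.02 in WT cells). The difference between the E4 and E3 responses, -0.24 ± 0.13, was not called (unadjusted p = 0.0614, adjusted p = 1), so a response particular to E4 is not shown. For that difference limma called 0 of all genes, with 459 at an unadjusted p under 0.05. Against WT, Picalm was lower in untreated E4 (-0.59 ± 0.08, adjusted p = 1.57e-07) and E3 cells (-0.46 ± 0.09, adjusted p = 5.27e-05), whose libraries all lay below the lowest WT library at 86.9 scaled TPM. KO and WT cells averaged 96.05 ± 6.19 and 95.01 ± 6.01 scaled TPM (SD, n = 5 each).

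Bin1 encodes a membrane-bending protein of the endocytic route (chr18:32377230-32435737, forward strand, ENSMUSG00000024381.16). It varied least, with group means between 162.2 and 200.4 scaled TPM. Untreated E4 cells averaged 186.2 ± 15.9 and untreated E3 cells 174.8 ± 15 (SD, n = 5 and 4). It was called in 0 of the 15 comparisons, and its log2 fold changes ran from -0.17 ± 0.08 (E4 myelin response, unadjusted p = 0.034, adjusted p = 0.144) to 0.14 (untreated KO against WT) among those between groups. With the coding total alone it was called higher in untreated E4 than WT cells (0.21, adjusted p = 0.00874). Of 13 tested genes of clathrin endocytosis, 1 rose with myelin in E4 cells and was higher in E4 than E3 cells in both states. This was Epn1, an adaptor that binds clathrin (response 0.53 ± 0.13, adjusted p = 0.00652; untreated E4 against E3 0.57 ± 0.14, adjusted p = 0.00363; after myelin 0.64 ± 0.14, adjusted p = 0.00148), opposite in sign to Picalm.

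Sorl1 encodes a receptor that sorts cargo, including the amyloid precursor protein, between endosomes and the Golgi (chr9:41964720-42124297, reverse strand, ENSMUSG00000049313.8). It was higher with a human APOE allele, at a low level. Untreated libraries held 16.7, 17.7, 17.9, 18.2 and 14 scaled TPM in E4 cells, 17.4, 11.9, 14 and 18.5 in E3 cells, and 11.2, 11.1, 8.82, 11.2 and 9.43 in WT cells. Every E4 and E3 library stood above every WT library. The difference was called in E4 (0.66 ± 0.20, adjusted p = 0.0043) and in E3 cells (0.52 ± 0.21, adjusted p = 0.0357). In E3 it was lost without E3 replicate 1 or 4 or WT replicate 3 or 5 (adjusted p 0.0657 to 0.114), and with no filter on low values (adjusted p = 0.0723). Of 9 tested astrocyte markers 8 were higher in E4 and in E3 than in WT cells, as were the 3 tested neuronal markers, and both cell types also express Sorl1. Summed over 9 neuronal markers, untreated libraries held 63.51 to 84.81 scaled TPM in E4, 63.01 to 71.23 in E3 and 15.04 to 21.82 in WT cells. Their part in the result was not tested. Sorl1 was not called in KO against WT cells (0.05 ± 0.20) or in any myelin response (-0.27 to -0.04).

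Retromer, the coat that carries SORL1 back from endosomes, was read beside it. Of 6 tested genes of the sortilin family and retromer, 3 rose with myelin in E4 cells, where 892 of all 10722 genes rose. Of the 3, Vps29 rose by 0.26 ± 0.07 (adjusted p = 0.0112) and Vps26a by 0.40 ± 0.13 (adjusted p = 0.0328), and Vps35 was the third. In E3 cells Vps29 was at 0.07 (adjusted p = 0.622) and Vps26a at 0.39 (adjusted p = 0.0883). With the coding total alone 1 of the 6 was called. In untreated cells Vps26a was lower in E4 (-0.93 ± 0.13, adjusted p = 5.26e-08) and E3 (-0.78 ± 0.14, adjusted p = 7.4e-06) than in WT cells, opposite to Sorl1. Both Vps29 (0.37 ± 0.10, adjusted p = 0.0271) and Vps26a (0.64 ± 0.18, adjusted p = 0.0343) responded more in E4 than in WT cells, a difference tested directly, though with the coding total alone 1 of the 6 genes was called.

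Abi3 encodes a member of the Abl interactor family that joins the WAVE complex, which drives actin branching (chr11:95830074-95842476, reverse strand, ENSMUSG00000018381.15). It was higher in untreated E4 than E3 cells. E4 libraries held 24.4, 26.2, 21.8, 21.6 and 20.8 scaled TPM and E3 libraries 15, 16.7, 17.3 and 16.6, with no overlap (0.46 ± 0.13, adjusted p = 0.0115). The call held on leaving out each of the 9 libraries in turn (adjusted p 0.0135 to 0.0477). After myelin the groups overlapped, with 23.3, 26.6, 26.8, 17.7 and 22.9 scaled TPM in E4 and 27.2, 13.8, 17.7 and 17.5 in E3 libraries, and no call (0.32 ± 0.13, adjusted p = 0.117). Without E3 myelin replicate 1 or E4 myelin replicate 4 that difference was called (adjusted p = 0.00675 and 0.0353), as it was with array weights (adjusted p = 0.00198). Untreated E4 cells averaged 22.94 ± 2.28 and WT cells 18.71 ± 2.46 scaled TPM (SD, n = 5 each; 0.28, adjusted p = 0.0409), a call lost in 5 of the 10 fits that leave out 1 library (adjusted p 0.0597 to 0.115). These were the fits without E4 replicate 1 or 2 or WT replicate 1, 2 or 3. It was also lost with no filter on low values (adjusted p = 0.0724). Of 10 other WAVE complex genes limma called 0 in E4 against E3 cells. At an unadjusted p under 0.05 there were 3 in untreated cells and 0 after myelin. Of all 10722 genes 3182 and 2505 were under that threshold. Against WT, 2 of the 10 WAVE complex genes were higher and 1 lower in untreated KO cells. In untreated E3 cells 1 was higher and 5 lower, and in untreated E4 cells 1 higher and 4 lower. Of all genes 25.9% were higher and 30.6% lower in KO, 23.1% and 32.7% in E3, and 25.9% and 38.7% in E4 cells. With the coding total alone the WAVE complex counts were 4 and 1, 1 and 5, and 2 and 2.

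Abca7 encodes a lipid transporter related to the cholesterol exporter ABCA1 (chr10:79996494-80015572, forward strand, ENSMUSG00000035722.15). It was lower in untreated E3 than WT cells. E3 libraries held 8.57, 11.3, 9.52 and 12.2 scaled TPM, against 13.6, 14.6, 11.5, 18.9 and 15.3 in WT libraries, with overlap at 1 WT library (-0.46, adjusted p = 0.0035). E4 libraries held 12.3, 12.6, 11.8, 11 and 12.4 (-0.26, adjusted p = 0.0656), which was called without WT replicate 3 (-0.34, adjusted p = 0.021) and with array weights (-0.24, adjusted p = 0.0379). Myelin gave no call in any genotype. In Het cells, with 2 myelin and 3 untreated libraries, the groups did not overlap (-0.43 ± 0.18, adjusted p = 0.434). That response was called in the fit of 47 libraries with array weights (-0.58, adjusted p = 0.00647). Abca1 did respond, by 0.64 ± 0.13 in E4 (adjusted p = 0.00138) and 0.82 ± 0.15 in E3 cells (adjusted p = 0.00176), and it responded more than in WT cells in both (0.77 ± 0.19, adjusted p = 0.0165, and 0.95 ± 0.20, adjusted p = 0.0138). Untreated, Abca1 was lower in E4 (-0.61 ± 0.13, adjusted p = 0.00014) and E3 (-1.20 ± 0.14, adjusted p = 5.83e-09) than in WT cells.

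Promoter sequence was read for the genes with a RefSeq window, to show which hold the motifs of a member's own product or of a lysosomal factor. RefSeq windows on GRCm38.p6, from 250 bases before to 50 after a start site, were given for 6 of the 10 genes (7 windows): Inpp5d, Cd33, Picalm, Plcg2, Sorl1 and Abca7. They were searched on both strands for a PU.1 motif, the PU box GAGGAAGT, and for GTCACGTG, the E-box form bound by the lysosomal gene factors of the TFEB family. The E-box was chosen after the windows had been read, so its count is a description. A PU box is in Inpp5d alone, 20 bases before its start, and in 3.2% of all 32851 windows and 3.22% of those of tested genes. The E-box is in Picalm, Plcg2 and the first window of Sorl1, and in 2.25% of all windows and 4.22% of those of tested genes. In Picalm it occurs at 2 places, each a palindrome that reads as a match on both strands, starting 193 bases before and 3 bases before the start site. In Plcg2 it starts 22 bases and in Sorl1, where it is on the opposite strand, 19 bases before the start site. Capitals mark the motifs in these windows, which are at chr1:87620062-87620361 (forward strand), chr7:90129963-90130262 (forward), chr8:117498025-117498324 (forward) and chr9:42124248-42124547 (reverse), and are written 5′ to 3′ along the gene.
Inpp5d: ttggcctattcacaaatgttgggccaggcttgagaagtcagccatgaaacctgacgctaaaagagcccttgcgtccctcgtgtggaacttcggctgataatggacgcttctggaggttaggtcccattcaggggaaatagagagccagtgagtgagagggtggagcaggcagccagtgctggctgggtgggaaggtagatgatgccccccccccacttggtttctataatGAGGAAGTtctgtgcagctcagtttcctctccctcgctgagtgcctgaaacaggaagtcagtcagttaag
Picalm: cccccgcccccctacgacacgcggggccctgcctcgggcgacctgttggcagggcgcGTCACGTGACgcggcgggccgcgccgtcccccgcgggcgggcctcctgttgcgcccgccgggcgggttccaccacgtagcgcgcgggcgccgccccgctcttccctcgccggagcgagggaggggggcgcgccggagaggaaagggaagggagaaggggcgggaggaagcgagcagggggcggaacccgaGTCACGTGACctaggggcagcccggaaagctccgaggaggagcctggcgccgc
Plcg2: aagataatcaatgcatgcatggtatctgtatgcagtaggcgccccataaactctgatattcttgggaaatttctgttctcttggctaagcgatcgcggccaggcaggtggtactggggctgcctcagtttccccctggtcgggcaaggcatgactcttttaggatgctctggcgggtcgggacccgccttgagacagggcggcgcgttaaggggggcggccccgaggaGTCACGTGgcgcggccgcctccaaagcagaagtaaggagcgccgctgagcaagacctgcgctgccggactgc
Sorl1: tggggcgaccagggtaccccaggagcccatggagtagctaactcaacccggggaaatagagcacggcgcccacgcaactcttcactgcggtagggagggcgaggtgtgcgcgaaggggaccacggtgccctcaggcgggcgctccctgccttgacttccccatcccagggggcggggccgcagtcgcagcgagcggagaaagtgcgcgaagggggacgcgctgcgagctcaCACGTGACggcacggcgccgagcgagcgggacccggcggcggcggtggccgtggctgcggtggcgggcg
In the E4 myelin response the 3 genes with the E-box gave -0.28 (Picalm, called), 0.17 (Plcg2) and -0.04 (Sorl1). Lysosomal Ctsb, the gene of cathepsin B, whose promoter is not shown here, rose by 0.68 ± 0.10 (adjusted p = 1.11e-05). Against WT, Picalm and Plcg2 were lower and Sorl1 higher in E4 and E3 cells. Any part of the motifs in these values was not tested.

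Other genes near Alzheimer risk variants were counted from a list of 31, of which 23 were tested. In untreated E4 against E3 cells 3 were higher and 1 lower, and after myelin 2 were higher and 1 lower; with the coding total alone 5 and 0, and 5 and 1. Clu, the gene of clusterin, which astrocytes make, was higher in both (0.84 ± 0.20, adjusted p = 0.00293, and 0.93 ± 0.20, adjusted p = 0.00139), as were astrocyte markers, of which it is 1. Rhoh, of a haematopoietic GTPase, was higher in untreated cells (0.34 ± 0.10, adjusted p = 0.0144) and after myelin (0.30 ± 0.10, adjusted p = 0.0419). With myelin, 4 rose in E4 cells and 3 in E3 cells, where 892 and 376 of all 10722 genes rose. Ctsb rose by 0.51 ± 0.11 in E3 cells (adjusted p = 0.00869), and Grn, the gene of the lysosomal protein progranulin, rose in E4 (0.46 ± 0.10, adjusted p = 0.00171) and E3 cells (0.41 ± 0.11, adjusted p = 0.0238). Ctsb responded more than in WT cells in E4 (0.73 ± 0.14, adjusted p = 0.00287) and in E3 cells (0.56 ± 0.15, adjusted p = 0.0432), and the E4 and E3 responses differed by 0.17 ± 0.15 (adjusted p = 1). In KO against WT cells 12 of the 23 were higher and 3 lower untreated (25.9% and 30.6% of all genes). After myelin 16 were higher and 2 lower (30.6% and 25% of all genes). In E4 and in E3 against WT cells 3 of the 23 were higher and 10 lower each. There 38.7% and 32.7% of all genes were lower, and 25.9% and 23.1% higher. With the coding total alone 7 of the 23 were higher and 8 lower in E4. Trem2 and Tyrobp on this list are also microglial markers, and the part of those markers was not tested.

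Patterns over the 10 group means were compared as a description, since these means share the library scaling and the cell makeup of each culture. Picalm and Ms4a6d were the most alike among the 10 genes (Pearson r = 0.94, 10 group means), followed by Plcg2 and Abca7 (0.90) and by Inpp5d and Ms4a6d (0.86). Sorl1 ran against Ms4a6d (-0.90) and Picalm (-0.89). Among all tested genes the patterns closest to Ms4a6d were those of Katna1 (0.982), Casp8 (0.981) and Efl1 (0.978), and closest to Cd33 were Rrp1b (0.925), Cd300lf (0.921) and Il16 (0.920).

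The differences between myelin responses held 0 calls among the 10 genes. This was so for E4 minus E3 (0% of all genes called), KO minus WT (3.39%), E3 minus WT (2.14%) and E4 minus WT (4.62%). At an unadjusted p under 0.05, 6 of the 10 genes differed in E4 minus WT, where 2609 of the 10722 genes did. There were 3 in KO minus WT (2475 of all genes), 2 in E3 minus WT (2360) and 1 in E4 minus E3 (459).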

How the data were processed

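The authors deposited TPM per gene and library for 47 RNA-seq libraries made from polyA RNA with a SMARTer kit for low input, as the labels' protocols say. The submitters' processing notes list Salmon 0.13.1, limma 3.40.6 and mm10, with no role given, and the annotation release is not given in the sources used here. TPM keeps no read depth, so depth is unknown and no counting interval was made.

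Each column of deposited TPM was rescaled to sum to 1000000 over nuclear protein-coding genes. It was then divided by a trimmed-mean library factor (30% of ratios and 5% of levels trimmed), giving scaled TPM. The fit covered the 10722 protein-coding and lincRNA genes that reached 5 scaled TPM in 4 or more libraries, on the log2(scaled TPM + 1) scale, where changes of low genes come out too small. It used limma 3.58.1 in R 4.3.3, with 1 mean for each of 10 groups, a mean-variance trend, two-sided tests and Benjamini-Hochberg adjustment over all genes (threshold 0.05). Libraries with under 6% of TPM in coding genes were left out. Fold changes are E4 over E3, KO, E3 or E4 over WT, and myelin over untreated. The test was run on simulated data first. Positions and transcripts were taken from GENCODE M21 (GRCm38), where all 10 genes matched by identifier, and promoters from RefSeq.

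The 10 genes, the partner and marker lists and the tests were chosen with earlier results of these data known. Partner genes named are, per list, the 2 with the lowest p in the E4 myelin response and the 2 with the lowest p in untreated E4 against E3 cells; Irf8, Vps35 and the border macrophage genes were named from counts of called genes after their values were seen. A gene that this rule names is not reported here. The 2 genes with the widest span of group means were compared with all genes for likeness. Alternatives were the 47 libraries with array weights or without, only the groups compared, the coding total alone, a pseudocount of 0.25, no filter, a replicate block and leaving out each library in turn.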

Additional observations from a re-analysis of the deposited data

Results flagged for a closer look

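Of 100 checks of a gene in a group of 4 or 5 libraries, 9 had a lowest or highest library that stood apart from the rest of its group, where chance gives about 1 in 20. The checks share libraries and are not independent, and some of the 9 come from a library left out of the tests. No excess over that rate is read from the count. E4 myelin replicate 4 was low for both Spi1 (202 scaled TPM, the others 255 to 276) and Bin1 (130, the others 169 to 181). E3 myelin replicate 1 was high for Spi1 (296, the others 216 to 220). Among untreated E3 libraries, replicate 2 was low for Picalm (63.1, the others 70.4 to 71.6) and replicate 1 for Inpp5d (121, the others 146 to 151). Untreated E4 replicate 1 was low for Plcg2 (31.7, the others 41.8 to 45). That library had the lowest coding share of the 43 tested (7.16% of TPM). It was also the lowest of its group for Cd33 (11.2), Ms4a6d (148) and Inpp5d (137), and the highest for Spi1 (297) and Picalm (65.9). Untreated Het replicate 5, which was left out of the tests, was low for Spi1 (115, the others 294 to 364), Bin1 (69.7, the others 167 to 198) and Abi3 (2.42, the others 16.6 to 21.3).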

How the results depend on the processing

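Under 7 alternatives and the leave-out fits no called value of the 10 genes changed sign. Counts below are of the 10 genes called. With all 47 libraries and array weights they were 3 in the E4 myelin response, 2 in the Het response, 3 in E4 against E3 after myelin, and 1 in each of the KO and E4 responses minus the WT response. Without weights they were 0 in the E4 and WT responses and in both E4 against E3 comparisons, and 1 in KO against WT after myelin. Fitting only the groups compared gave 0 in the WT response, and no filter gave 1 in untreated E4 against E3 cells. Leaving out 1 library at a time gave 0 to 2 in the E4 and WT responses, 1 to 2 in E4 against E3 untreated and after myelin, 0 to 1 for the KO and for the E3 response minus WT, and 0 to 2 for the E4 response minus WT. Of 150 values per setting, 12 lost their call without weights and 10 gained one with them, the coding total alone lost 1 and gained 2, no filter lost 3, the replicate block and the fit of compared groups lost 1 each, and a pseudocount of 0.25 changed 0. The cause was not tested.

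Counts over all genes moved more. In place of 1320, 569, 250, 13 and 673 genes in the E4, E3, KO, Het and WT responses, array weights gave 2480, 1922, 642, 2024 and 1054, and the unweighted 47 libraries 224, 5, 13, 29 and 262. In place of 1837 and 1213 in E4 against E3 untreated and after myelin they gave 2877 and 2960, and 657 and 472. For the KO, E3 and E4 responses minus WT (363, 229 and 495) they gave 1314, 1108 and 1065, and 5, 0 and 3, and for E4 minus E3 (0) they gave 37 and 0. No filter gave 307 in the E3, 517 in the Het, 46, 76 and 182 in the KO, E3 and E4 responses minus WT. Only the groups compared gave 440 in the KO response and 0 in the Het and WT responses; a pseudocount of 0.25 gave 23 and the coding total 21 in the Het response and 148 in KO minus WT. For E4 minus WT the groups compared alone gave 324. When single libraries were left out, counts ran over 784 to 1505, 84 to 693, 118 to 253, 0 to 551 and 304 to 953 in the E4, E3, KO, Het and WT responses, and 57 to 797, 20 to 660 and 177 to 770 for the KO, E3 and E4 responses minus WT. The unweighted fit gave 3916 in place of 5984 in E3 against WT. With the coding total alone the split of higher and lower calls was 713 and 654 in place of 892 and 428 in the E4 response, 312 and 278 in place of 376 and 193 in the E3 response, 3096 and 2736 in place of 2475 and 3509 in E3 against WT, 3484 and 3349 in place of 2779 and 4151 in E4 against WT, 3 and 18 in place of 0 and 13 in the Het response, 43 and 105 in place of 154 and 209 for KO minus WT, and 205 and 173 in place of 327 and 168 for E4 minus WT.

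Same-numbered libraries did not deviate together: 10 of 38 pairs had a correlation of deviations above 0.1 (-0.202 to 0.467), and 8 correlated best with their own number. With the replicate block, Sorl1 in E3 against WT lost its call (0.50, adjusted p = 0.0503), and the other 149 values kept theirs. Depth is unknown here, since TPM carries none.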
